A study of Mus musculus with 4 samples.

Results

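The cluster of miR-221 and miR-222 was followed as its 4 mature strands (mmu-miR-221-5p, mmu-miR-221-3p, mmu-miR-222-5p and mmu-miR-222-3p), picked by name alone from the 1907 mature miRNAs listed in a small RNA-seq table. The 4 libraries came from E14Tg2A, a mouse embryonic stem (ES) cell line of strain 129/Ola grown on gelatin. ES serum cells were kept with 10% fetal calf serum and 1000 U/mL leukemia inhibitory factor (LIF). ES 2iL cells were switched to serum-free N2/B27 medium with the MEK inhibitor PD0325901 (1 μM), the GSK3 inhibitor CHIR99021 (3 μM) and the same LIF, a medium that holds cells in the ground state. ELA serum and ELA 2iL are the epiblast-like aggregates that each of these populations formed after 2 days of floating culture in a chemically defined minimal medium. Neither ELA group was in serum, inhibitors or LIF at harvest, so "serum" and "2iL" name the ES cells of origin. RNA of 3 experiments was pooled for the 1 library of each group, and no value below has a replicate error.

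Values are RPM, reads scaled to a total of 1000000 over the listed miRNAs, so a level is a share of miRNA reads and not an amount per cell. Whole reads could be recovered from all values, with totals between 587363 in ELA 2iL and 8056984 in ES serum. Ranges in parentheses after a level, share or ratio are exact 95% intervals, which measure counting error alone (the protocol has no molecular identifiers). ES cell markers were present in all libraries, where miR-291a-3p, miR-294-3p and miR-295-3p together took from 4.10% to 14.2% of the reads. The 4 strands of miR-302 and miR-367 listed as epiblast-like markers summed to 5222 RPM in ES and 32895 in ELA from serum cells, and to 67.6 and 5549 from 2iL cells. Another label field of the series exchanges ES 2iL with ELA serum; the groups here follow the titles, which match the column names. By the titles this sum was higher and that of the ES cell markers lower in ELA than in ES cells of both origins. By the other field both directions would be exchanged.

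Animal miRNAs are cut from a hairpin precursor as a duplex of a 5p and a 3p strand, of which usually one (the guide) is kept by Argonaute while its partner (the passenger) is lost. The guide finds mRNAs mainly through its seed, and strands that share a seed are expected to share targets. miR-221 and miR-222 are made from one primary transcript. Their 3p strands are the usual guides and are called guides below, a name that does not rest on the reads of these libraries. They are best known as repressors of Cdkn1b, which encodes the cell cycle inhibitor p27Kip1, and of the receptor Kit, and they are abundant in many proliferating, vascular and mesenchymal cells.

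The mature strands are shown because the guides share a seed while the 5p strand of the same hairpin does not. Sequences were found in RefSeq for 3 of the 4 members and are printed 5′ to 3′ with bases 2 to 8, the seed, in capitals.
mmu-miR-221-3p: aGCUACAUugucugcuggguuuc
mmu-miR-222-3p: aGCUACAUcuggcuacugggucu
mmu-miR-221-5p: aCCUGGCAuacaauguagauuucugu

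Both guides carried the seed GCUACAU. They were identical over the first 8 bases and at 11 of 23 positions in all, so full-length reads of the pair can be told apart. Of the 1907 listed miRNAs, 1623 had a sequence in the table, and 1 other listed miRNA, mmu-miR-1928, held the same seed. It was listed at 0 in every library. The seeds of the listed miRNAs without a sequence were not searched. The seed of mmu-miR-221-5p, CCUGGCA, was found in 0 other listed miRNAs with a sequence.

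The hairpins lie on the minus strand of chromosome X in mm9, with Mir222 first in the direction of transcription. Mir222 is at chrX:18724019-18724097 and Mir221 at chrX:18723420-18723514, with 504 bases between them, and the whole cluster spans 678 bases. No other annotated gene overlaps either hairpin. The nearest annotated gene upstream on the same strand is the lincRNA Gm14636 (chrX:18734107-18744367), which ends 10009 bases away, and the nearest protein-coding gene, BC049702, is 332 kb away. The RefSeq hairpins (GRCm38.p6) were identical to the mm9 genome at these places. They are shown with the mature strands of the RefSeq table in capitals, to place both arms of miR-221 on its stem.
Mir221: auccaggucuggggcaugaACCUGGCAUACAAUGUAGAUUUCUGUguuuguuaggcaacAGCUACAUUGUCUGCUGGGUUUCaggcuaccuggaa
Mir222: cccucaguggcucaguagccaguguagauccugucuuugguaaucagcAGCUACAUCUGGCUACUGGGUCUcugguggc

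The guides ranked well above the median of the miRNAs with reads in all 4 libraries, but the cluster made up a small share of the reads. From serum cells, the 4 strands together took 0.0524% of all reads in ES cells and 0.0650% in ELA. From 2iL cells they took 0.0326% and 0.0986%. mmu-miR-222-3p had the highest RPM of the strands in all libraries, although in ES serum its interval overlapped that of mmu-miR-221-5p, and ranked between 120 and 184 among the 691 to 1034 miRNAs with reads. mmu-miR-222-5p was the least abundant strand and ranked between 263 and 435.

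The guide mmu-miR-222-3p was higher in ELA than in ES cells of both media. From serum cells it measured 180 RPM in ES cells (95% interval 171 to 189) and 268 in ELA (253 to 284). From 2iL cells it measured 180 RPM in ES cells (165 to 197) and 441 in ELA (389 to 498). The ES libraries could not be told apart in RPM, with a ratio of 2iL to serum of 1.00 (0.904 to 1.11), while both ELA libraries lay above them and ELA 2iL was the highest. The ratio of ELA to ES was 1.49 (1.38 to 1.61) from serum cells and 2.45 (2.10 to 2.85) from 2iL cells.

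The guide mmu-miR-221-3p lay between 111 and 136 RPM in 3 libraries and stood out in ELA 2iL. The serum pair measured 128 RPM in ES cells (121 to 137) and 136 in ELA (125 to 147), and the 2iL pair 111 (98.5 to 124) and 313 (270 to 362). From serum cells the ratio of ELA to ES was 1.05 (0.952 to 1.17), so a difference was not detectable at this depth. From 2iL cells it was 2.83 (2.35 to 3.41).

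Added up, the guides with the GCUACAU seed gave 308 RPM (296 to 321) in ES and 404 (385 to 423) in ELA from serum cells, and 291 (271 to 312) and 754 (686 to 828) from 2iL cells. ES cells of both media thus held similar shares of the guides, with a 2iL to serum ratio of 0.944 (0.870 to 1.02). ELA 2iL held 1.87 times the share of ELA serum (1.68 to 2.07).

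The 5p strands followed another pattern. For mmu-miR-221-5p the serum pair measured 176 RPM in ES cells (167 to 186) and 206 in ELA (193 to 220), and the 2iL pair 24.6 (19.1 to 31.2, from 68 reads) and 216 (180 to 257). ES 2iL was low and stood apart from the other 3 libraries, and the ELA libraries could not be told apart, with a ratio of 1.05 (0.865 to 1.27). Between the ES libraries the strand was 7.18-fold lower in 2iL (ratio 0.139, 0.108 to 0.178). From 2iL cells it was 8.80-fold higher in ELA (6.50 to 12.0), and from serum cells 1.17-fold (1.07 to 1.27).

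mmu-miR-222-5p was low in both libraries that came from 2iL cells. The serum pair measured 38.7 RPM in ES cells (34.5 to 43.3) and 40.4 in ELA (34.6 to 46.8), and the 2iL pair 10.5 (7.02 to 15.1, from 29 reads) and 15.3 (7.01 to 29.1, from 9 reads). The 2iL to serum ratio was 0.271 (0.178 to 0.397) in ES cells and 0.379 (0.171 to 0.737) in ELA. No difference between ELA and ES was detectable in either medium, with ratios of 1.04 (0.861 to 1.26) from serum cells and 1.46 (0.609 to 3.17) from 2iL cells.

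**Figure D1:**
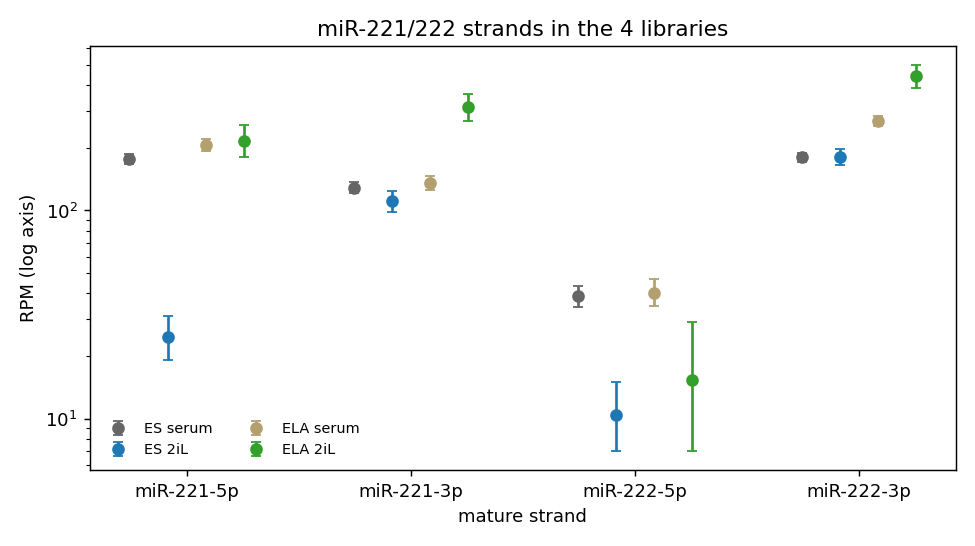
RPM (log axis) of the 4 strands of the cluster in the 4 libraries, as points with exact 95% counting intervals. The 3p strands are highest in ELA 2iL (313 and 441 RPM), while mmu-miR-221-5p is low in ES 2iL alone (24.6 RPM).

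The ratio of the arms of a hairpin does not depend on how the libraries are scaled. Of the reads of both arms of miR-221, the 3p strand made up 42.1% in ES cells (40.2 to 44.1) and 39.7% in ELA (37.2 to 42.3) of the serum pair. In the 2iL pair it made up 81.8% (77.5 to 85.6) and 59.2% (53.5 to 64.7). The 5p strand was therefore the more abundant in both libraries from serum cells, and the 3p strand in both from 2iL cells. A read share within one library also carries differences in ligation and mapping between the strands, which were not tested; the comparison between libraries rests on the same pair of strands.

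For miR-222, the 3p strand was the major arm throughout. It took 82.3% (80.4 to 84.0) in ES cells and 86.9% (85.0 to 88.7) in ELA of the serum pair, and 94.5% (92.2 to 96.3) and 96.6% (93.7 to 98.5) in the 2iL pair. As for miR-221, both libraries from 2iL cells lay above both from serum cells.

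**Figure D2:**
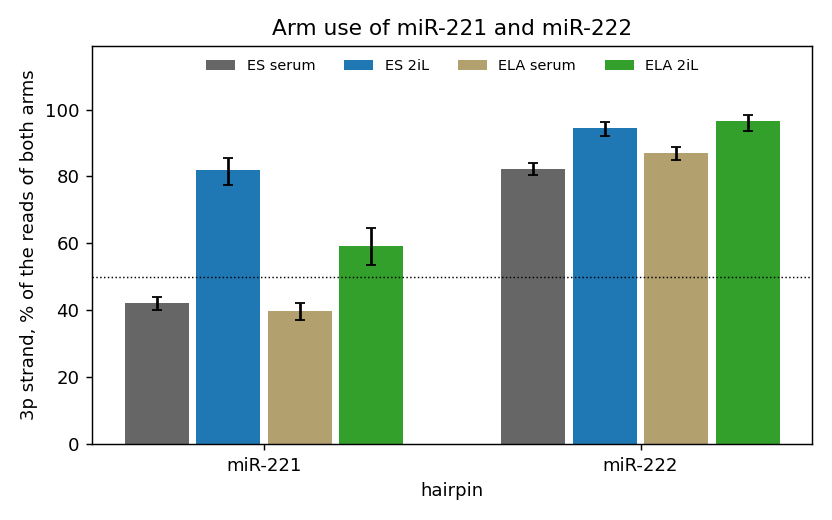
Reads of the 3p strand as a percent of the reads of both arms, for miR-221 and miR-222 in each library, with exact 95% counting intervals and a dotted line at 50%. The bars of miR-221 lie below the line in the libraries from serum cells (42.1% and 39.7%) and above it in those from 2iL cells (81.8% and 59.2%), and those of miR-222 all lie above it.

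In ES cells the 3p to 5p ratio was 6.18-fold higher in 2iL than in serum for miR-221, or 2.63 on the log2 scale (2.23 to 3.05), and 3.70-fold higher for miR-222, or 1.89 (1.32 to 2.51). In ELA the same comparison gave 1.14 (0.77 to 1.51) for miR-221 and 2.11 (1.13 to 3.29) for miR-222. Other hairpins shifted too. Among 142 hairpins with at least 50 reads on both arms together in every library, and at least 10 on the minor arm in one, the ratio moved by at least 1 on the log2 scale in 35.9% between the ES libraries and in 39.4% between the ELA libraries. These shares count point values without their intervals, so hairpins with few reads on the minor arm, above all in the shallow ELA 2iL library, can pass by counting error. By size (with 0.5 reads added to each arm), the shift between the ES libraries ranked 5 (miR-221) and 18 (miR-222) of 142, and that between the ELA libraries 51 and 22.

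At the ES–ELA transition the arms of miR-221 shifted in 2iL but not detectably in serum. The log2 change of its 3p to 5p ratio was −1.64 (−2.16 to −1.11) from 2iL cells, where 28.2% of the 142 hairpins moved by at least 1, and −0.14 (−0.34 to 0.05) from serum cells, where 13.4% did. From 2iL cells most of those hairpins moved as miR-221 did, 31 toward 5p and 9 toward 3p, the median of the 142 being −0.34, and miR-221 ranked 16 by size. For miR-222 it was 0.74 (−0.40 to 2.03) from 2iL cells and 0.52 (0.22 to 0.82) from serum cells. miR-221 was 1 of 11 hairpins, or 7.75% of the 142, whose more abundant arm was not the same in all libraries.

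**Figure D3:**
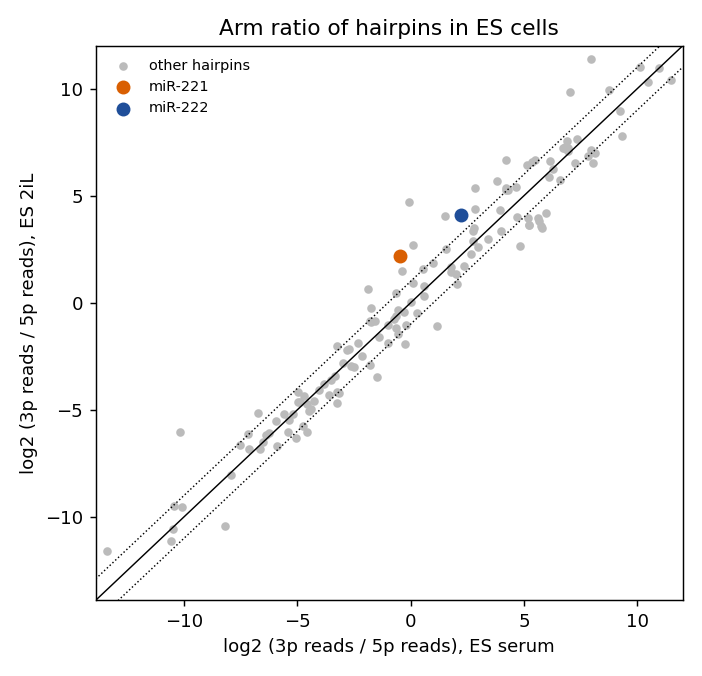
Log2 of 3p over 5p reads (0.5 added to each) of 142 hairpins in ES serum (x axis) and ES 2iL (y axis), with a solid line of equality and dotted lines at a difference of 1. miR-221 and miR-222 both lie above the upper dotted line.

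Within the 3p strands, the share of miR-222 was 58.3% (56.4 to 60.3) in ES cells and 66.5% (64.2 to 68.7) in ELA of the serum pair, and 62.0% (58.5 to 65.4) and 58.5% (53.7 to 63.1) in the 2iL pair. The guides of the hairpins thus kept a ratio of miR-222 to miR-221 between 1.40 and 1.98. Among the 5p strands the share of miR-222 ran from 6.62% in ELA 2iL (3.07 to 12.2) to 29.9% in ES 2iL (21.0 to 40.0).

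The next question was how these differences compare with those of other miRNAs. Differences were taken as log2(RPM + 1), a pseudocount that understates the change of low miRNAs, and set against all miRNAs whose log2(RPM + 1) averaged 5 or more over the pair of libraries. mmu-miR-222-5p reached this level only in the serum pair and is left out of the other counts. At the transition from 2iL cells, 3 of 3 members were higher in ELA by at least 1, with differences of 3.09 for mmu-miR-221-5p, 1.49 for mmu-miR-221-3p and 1.29 for mmu-miR-222-3p, against 15.3% of 314 miRNAs. From serum cells 0 of 4 were, against 8.33% of 288 miRNAs, the largest difference being 0.58 for mmu-miR-222-3p. The cluster was taken up with earlier results of these data known, so these counts are a description. The median miRNA was itself shifted by −0.30 in ELA against ES cells of the 2iL pair and by 0.08 in the serum pair.

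Between the ES libraries, 1 of 3 members was lower in 2iL by at least 1 (mmu-miR-221-5p, −2.79), against 14.8% of 310 miRNAs, and 0 of 3 were higher, against 32.9%. Between the ELA libraries, 1 of 3 was higher in 2iL by at least 1 (mmu-miR-221-3p, 1.20), against 20.9% of 302 miRNAs. In RPM, 2 of 3 (both strands of miR-221) were lower in 2iL among ES cells and higher among ELA, which held for 13.6% of the 302 miRNAs with a mean of at least 5 over all libraries. For mmu-miR-221-5p the difference in ELA was only 0.07, within counting error, and was −0.28 under TMM scaling (edgeR's normalization by trimmed means). The median miRNA itself differed between media, by 0.50 between the ES libraries and by 0.35 between the ELA libraries. Relative to it, mmu-miR-222-3p differed by −0.50 in ES cells and by 0.37 in ELA, and mmu-miR-221-3p by −0.72 and 0.86.

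**Figure D4:**
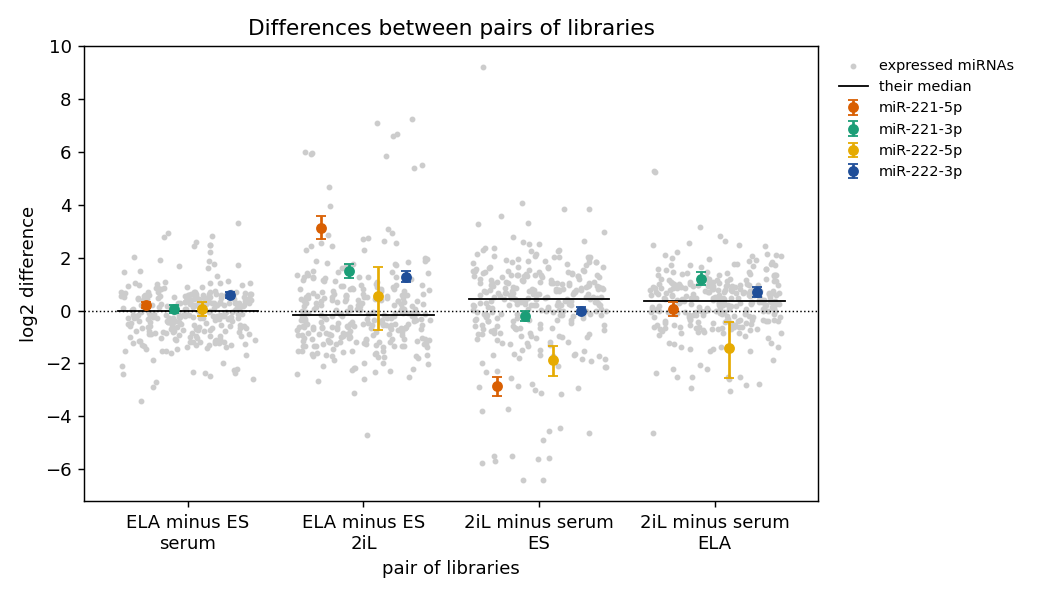
Log2 differences for 4 pairs of libraries. Coloured points are the log2 RPM ratios of the 4 strands with exact 95% counting intervals, grey points are the log2(RPM + 1) differences of 302 miRNAs that averaged 5 or more over all libraries, and black lines their medians. mmu-miR-221-5p lies high at the transition from 2iL cells (ratio 8.80) and low in ES 2iL against ES serum (ratio 0.139).

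To use all 4 libraries at once, the stage contrast (ELA minus ES, averaged over the media) and the medium contrast (2iL minus serum, averaged over the stages) were fitted with limma to 599 miRNAs. With 1 library a group, this fit takes any dependence of stage on medium as noise. All 4 strands were higher in ELA in this contrast, by 1.65 ± 0.79 (log2, limma standard error) for mmu-miR-221-5p, 0.93 ± 0.47 for mmu-miR-222-3p, 0.79 ± 0.54 for mmu-miR-221-3p and 0.28 ± 0.45 for mmu-miR-222-5p. None passed the limma test, with adjusted p-values of 0.284, 0.302, 0.436 and 0.740 in this order. The test called 0% of the 599 miRNAs, of which 125 had an unadjusted p-value under 0.05, and no member was among these. On the recovered reads, the quasi-likelihood test of edgeR called 6.51% of miRNAs and DESeq2's Wald test 9.06%, and in both 0 of the 4 members were called (the smallest adjusted p-values were 0.154 and 0.0738, both for mmu-miR-221-5p).

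In the medium contrast the 5p strands were lower in 2iL, by −1.36 ± 0.79 for mmu-miR-221-5p and −1.57 ± 0.45 for mmu-miR-222-5p (limma adjusted p = 0.310 and 0.128). For mmu-miR-221-5p this averages −2.79 between the ES libraries and 0.07 between the ELA libraries, and so rests on ES cells. The 3p strands differed by 0.49 ± 0.54 for mmu-miR-221-3p and 0.36 ± 0.47 for mmu-miR-222-3p (adjusted p = 0.578 and 0.639). Those values lay close to the median miRNA, which was higher in 2iL by 0.42, and relative to it they were 0.07 and −0.06. limma called 0% of the miRNAs for the medium, with 176 of 599 at an unadjusted p-value under 0.05, among them mmu-miR-222-5p (0.0187). This strand was called by edgeR (adjusted p = 0.0400, where 10.7% of miRNAs were called) and by DESeq2 (0.0284, where 14.8% were), but it rests on 9 reads in ELA 2iL.

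Both contrasts average unlike changes for miR-221. The difference of the ELA to ES change between the media, divided by 2, was 1.43 for mmu-miR-221-5p and 0.71 for mmu-miR-221-3p, against 0.35 for mmu-miR-222-3p and an SD of 0.61 over the 302 miRNAs. Relative to those 302, mmu-miR-221-5p stood at percentile 95.7 in this quantity. With 1 library a group, this dependence on medium could not be tested.

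The miRNAs whose levels ran most like those of the guides were found by the distance between log2(RPM + 1) values over the 4 libraries, each centred on its own mean, among 299 miRNAs. The nearest to mmu-miR-222-3p were mmu-miR-758-3p (distance 0.04), mmu-miR-382-5p (0.10), mmu-miR-450b-5p (0.19), mmu-miR-542-3p (0.29) and mmu-miR-154-5p (0.31). mmu-miR-758-3p, for example, went from 3284 RPM in ES cells to 4915 in ELA of the serum pair, and from 3323 to 7844 in the 2iL pair. The nearest to mmu-miR-221-3p were mmu-miR-154-3p (0.37), mmu-miR-450b-5p (0.38), mmu-miR-758-3p (0.43), mmu-miR-20a-3p (0.43) and mmu-miR-20a-5p (0.45). The guides were 0.41 apart, with 2 miRNAs closer to mmu-miR-221-3p and 9 closer to mmu-miR-222-3p. Each guide was over 2 units from every 5p strand of the cluster, with 2.17 between the arms of miR-221 and 2.04 between those of miR-222. With 4 libraries of unequal depth, these distances are a description only.

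Other miRNAs reported to act on the Cip/Kip family of cell cycle inhibitors, to which p27Kip1 belongs, were taken as a list of 16, of which 15 averaged 5 or more in log2(RPM + 1), the exception being mmu-miR-24-3p. In the stage contrast 5 of 15 were higher in ELA by at least 1 (mmu-miR-20b-5p, mmu-miR-106a-5p, mmu-miR-302a-3p, mmu-miR-302b-3p and mmu-miR-302d-3p), against 11.6% of the 302 miRNAs, and 0 were lower, against 16.2%. The 3 strands of miR-302 among them are also epiblast-like markers, and the list was drawn up with earlier results of these data known, so its count is no independent evidence. The median of the list was 0.58, against −0.08 over the 302. In the medium contrast 3 were higher in 2iL (mmu-miR-93-5p, mmu-miR-106b-5p and mmu-miR-295-3p), against 23.8%. The 3 lower, against 13.2%, were the same strands of miR-302. The median of the list was 0.20, against 0.42. Summed, the list is far more abundant than the cluster. mmu-miR-92a-3p alone measured between 71866 and 107463 RPM, and mmu-miR-17-5p, which acts on Cdkn1a, between 838 and 2264. Not every member was abundant. mmu-miR-181a-5p measured between 45.2 RPM in ES 2iL and 117 in ELA serum, and the miR-302 strands between 14.8 and 27.5 in ES 2iL.

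Among 24 other miRNAs from chromosome X at a mean of at least 5, 5 were higher in ELA by at least 1, against 11.6% of the 302 miRNAs, and 2 lower, against 16.2%, with a median stage contrast of 0.24 against −0.08 over the 302. In the medium contrast 4 were higher in 2iL, against 23.8%, and 6 lower, against 13.2%, with a median of −0.37 against 0.42 over the 302. X-linked miRNAs without a sequence in RefSeq are not in this list, so its counts can be too low. The highest in the stage contrast was mmu-miR-20b-5p (2.20). Strands of one hairpin or transcript were counted singly and not grouped, so these counts are not a measure of chromosome X as a whole.

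Since the cluster is abundant in vascular and mesenchymal cells, markers of other cell types were read beside it. Both strands of the endothelial miR-126a were listed at 0 in all libraries, as was the liver miR-122-5p. Of the 5 mesenchymal markers, 4 had more than 3 reads in each library, and miR-214-3p was at 0 in ES serum and ELA serum. Their sum was 3162 RPM in ES cells and 1475 in ELA of the serum pair, and 4847 and 1985 in the 2iL pair, nearly all from miR-143-3p, and it was lower in ELA in both pairs. In the 2iL pair, 2 of these markers had a higher RPM in ELA, miR-199a-5p (13.0 RPM in ES cells and 23.8 in ELA) and miR-214-3p (1.08 and 1.70, under the floor of 3 reads in ELA). The 5 blood markers, nearly all from miR-142a-5p, summed to 594 RPM in ES cells and 551 in ELA of the serum pair, and to 1612 and 2007 in the 2iL pair, so their sum, like the guides, was highest in ELA 2iL. The other strand, miR-142a-3p, was listed at 0 throughout, and the widely expressed miR-24-3p measured 0.50 and 0.36 RPM in ES serum and ES 2iL and was listed at 0 in both ELA libraries, so a miRNA listed at 0 here is not shown to be absent. The sum of the 3 muscle markers, nearly all from miR-133a-3p, was higher in ELA in both pairs, as mmu-miR-222-3p was. It was 11.5 RPM in ES cells and 48.5 in ELA of the serum pair, and 0 and 73.2 in the 2iL pair. Among them, miR-206-3p was listed at 0 in both libraries of the 2iL pair. The 2 neural markers summed to between 262 and 424 RPM. The part of such cells in the values of the cluster was not tested.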

How the data were processed

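Small RNA libraries (TruSeq) of total RNA were sequenced as 50-bp single reads. The authors demultiplexed with CASAVA 1.8, trimmed adaptors with Trimmomatic, mapped with Bowtie to mm9, assigned reads to miRBase 20 miRNAs with featureCounts and deposited RPM values, each column summing to 1000000. Mismatches and multi-mapping were not given in the sources used here. All 4 columns were used, and 0 columns belonged to other samples.

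Every value was a whole number of reads within 0.01 (100% in each library). The depth of 587363 to 8056984 reads puts the floor of 3 reads at 0.372 RPM in ES serum and 5.11 RPM in ELA 2iL.

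Additive terms for stage and medium were fitted to log2(RPM + 1) with limma 3.58.1 (lmFit, eBayes) for the 599 miRNAs that reached 10 reads in 2 or more libraries. P-values are two-sided and were adjusted over these 599 by Benjamini-Hochberg, and those under 0.05 were called. Each miRNA had 1 residual degree of freedom (3.79 prior). edgeR 4.0.16 and DESeq2 1.42.0 on the recovered reads were alternatives. The fits and intervals were tested on simulated data, in repeated draws. With changes outside the 50 most abundant miRNAs, all 3 tools made few false calls. With changes at any abundance, limma on RPM made many in some draws, while edgeR and DESeq2 made few. At the spread estimated by edgeR from these libraries, limma and edgeR made no call in some draws. Ratios of a pair of libraries have exact (Clopper-Pearson) intervals, and ratios of arms exact conditional odds ratio intervals (scipy 1.17.1). For a pair, the mean of log2 values was taken over that pair.

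Named miRNAs are the 4 members, those that share their guide seed, the 5 nearest to each guide in pattern, and fixed lists. Chromosomes of the X-linked list came from RefSeq, and positions from the mm9 annotation (GENCODE M1). The rule takes the members by name, but the cluster and the lists were chosen with earlier results of these data known. Groups follow the sample titles; grouping by the description field would exchange ES 2iL and ELA serum, and with them the stage and medium contrasts.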

Additional observations from a re-analysis of the deposited data

Results flagged for a closer look

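In RPM, the differences between the media had opposite signs at the 2 stages for both strands of miR-221. mmu-miR-221-3p differed by −0.21 (2iL minus serum, log2) in ES cells and by 1.20 in ELA. mmu-miR-221-5p differed by −2.79 in ES cells and by 0.071 in ELA, the latter within counting error. With TMM scaling and DESeq2 size factors the latter was −0.28 and −0.29, the direction seen in ES cells. The difference between the stages was not tested, as each value compares 1 library with 1 library.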

How the results depend on the processing

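Of 64 fits of the members' contrasts under 8 alternatives, 56 kept their direction and their side of the threshold. The stage contrast of mmu-miR-221-5p passed without the filter on low counts (1.65, adjusted p = 0.0467, where 8.24% of 1202 miRNAs were called), against a range of 0.0467 to 0.387 over its alternatives. The medium contrast of mmu-miR-222-5p passed with TMM scaling (−1.96, where 12.4% of 599 miRNAs were called), edgeR (−2.09) and DESeq2's Wald test (−2.04), where adjusted p-values ran from 0.0284 to 0.206. The medium contrast of mmu-miR-222-3p turned negative with TMM scaling (−0.059), DESeq2 size factors (−0.019), edgeR (−0.061) and DESeq2's Wald test (−0.021). TMM moved the median miRNA of the medium contrast from 0.42 to 0.00417.

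Of 80 pair differences of single strands, 61 stayed within their counting interval and 19 moved beyond it. The sum of the 3p strands, an alternative added after seeing the data like that of the 5p strands, differed between ELA and ES by 0.50 with TMM and 0.58 with DESeq2 size factors in serum, and in 2iL by 1.62 with TMM, 1.60 with DESeq2 size factors and 1.62 with totals without the 5 most abundant miRNAs. Between the media it differed in ES cells by −0.57, −0.48 and −0.36 in the same order, and in ELA by 0.55 with TMM and 0.54 with DESeq2 size factors. The sum of the 5p strands differed between ELA and ES in serum by 0.39 with DESeq2 size factors, and between the media by −3.06 and −2.97 in ES cells and by −0.44 and −0.45 in ELA with TMM and DESeq2 size factors. With at least 200 reads per hairpin, the share whose arm ratio moved was 38.8% of 103 hairpins between the ES libraries.

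The number of miRNAs called depended on the setting, from 0 to 99 for stage and from 0 to 130 for the medium. The stage contrast compares ELA with ES cells within each medium, which enters as a term. No paired analysis was possible beyond this, because each group had 1 library. Depth limits mmu-miR-222-5p most, with 9 reads in ELA 2iL.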
